A study of Caenorhabditis elegans with 2 samples.

Results

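The genes described here encode the nuclear hormone receptors of Caenorhabditis elegans, taken as the protein-coding genes of the Ensembl WBcel235 annotation whose symbols start with nhr-. There were 269 of them among 19973 protein-coding genes on the 6 nuclear chromosomes. Nuclear hormone receptors are transcription factors that bind DNA through a zinc finger domain and, in many cases, a small lipophilic ligand through a second domain. The worm has an expanded family, most of it related to the vertebrate receptor HNF4, beside a smaller set of receptors with clear relatives in insects and vertebrates. Members are known for roles in fat metabolism, molting, dietary and toxin responses and developmental timing.

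The data were chromatin immunoprecipitation followed by sequencing (ChIP-seq) for DMD-9, a transcription factor with a DM domain, the DNA-binding fold named for doublesex and mab-3, which act in sexual development. The worms were of strain RJP5357, in which CRISPR had inserted a GFP::AID::TEV::3xFLAG tag at dmd-9 on chromosome IV (allele rp169), and all samples carried this insertion. They were collected whole as L4 larvae at 48 hours, after bleaching and arrest by starvation at L1, and the tagged protein was recovered with an antibody against GFP. There was 1 group of 2 biological replicates and no other strain, stage or treatment, so the comparisons are between nhr genes and all protein-coding genes, and between replicates. In chromatin from whole animals, strong occupancy in few cells cannot be told apart from weak occupancy in many, and the depth of each library is unknown.

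A peak was counted for a gene when its summit lay between 1000 bp upstream and 200 bp downstream of the start of any annotated transcript of that gene (the 5' end window). The pooled thresholded list, made from both replicates together, held 1379 peaks that all had a global irreproducible discovery rate (IDR) of 0.01 or less. The IDR is the expected share of peaks at that rank or better that do not repeat between the calls compared. The conservative list, from the replicates set against each other, held 1346 peaks, and the lists of replicate 1 and replicate 2 alone held 569 and 545. Signal is the peak caller's value for each peak. It is not scaled between lists. At the strongest peaks of the 9 nhr genes with a peak past the threshold the pooled value was near the sum of the replicate values, but weaker ranked peaks could depart from this, as at nhr-46, with 17.8 pooled and 26.5 in replicate 2.

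The sequences under the peaks of nhr genes show what the mapped sites are. Each is in ce11 coordinates from the RefSeq genome, printed 5' to 3' on the strand of the receptor gene. The first pair is shown because the summit lay in or beside a gene for a tRNA, whose bases are in capitals. The nhr-255 stretch is chrX:15742014-15742114, plus strand, with the gene ZK678.t1 for tRNA-Leu. The nhr-41 stretch is chrIV:1388259-1388359, plus strand. Its capitals are the reverse complement of part of Y104H12A.t1, a tRNA-Glu gene on the minus strand.
nhr-255: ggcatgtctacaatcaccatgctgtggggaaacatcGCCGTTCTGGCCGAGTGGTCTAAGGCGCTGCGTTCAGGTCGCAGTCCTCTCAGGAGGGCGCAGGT
nhr-41: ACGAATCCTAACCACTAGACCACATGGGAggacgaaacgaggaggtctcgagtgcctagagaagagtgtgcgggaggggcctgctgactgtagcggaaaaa

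The next set is shown because these peaks lay away from tRNA genes. Each was searched for the palindromic pattern ACANNTGT, and whether DMD-9 or other DM-domain proteins bind this pattern was not tested. Capitals in nhr-35 and nhr-68 mark matches to it or, as the TCTCTC in nhr-68, to GAGAGA on the other strand. The nhr-142 stretch is chrV:5791030-5791130, minus strand, the nhr-35 stretch is chrX:4532334-4532434, plus strand, and the nhr-91 stretch is chrX:15308785-15308885, plus strand. The nhr-132 stretch is chrV:533755-533855, plus strand, and lies within a coding exon of the neighbouring receptor gene nhr-58. The nhr-68 stretch is the intergenic part of its peak, chrV:11572991-11573117, plus strand. Its summit is just outside, in the 5' UTR of the neighbouring gene.
nhr-142: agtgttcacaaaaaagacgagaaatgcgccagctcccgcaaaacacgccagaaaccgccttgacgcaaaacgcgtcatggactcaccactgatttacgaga
nhr-35: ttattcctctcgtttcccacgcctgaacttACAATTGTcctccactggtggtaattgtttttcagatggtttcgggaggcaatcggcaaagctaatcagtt
nhr-91: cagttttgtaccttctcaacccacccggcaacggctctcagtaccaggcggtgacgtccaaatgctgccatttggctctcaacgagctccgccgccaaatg
nhr-132: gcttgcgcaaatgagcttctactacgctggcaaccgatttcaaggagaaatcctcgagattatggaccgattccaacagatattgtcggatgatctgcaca
nhr-68: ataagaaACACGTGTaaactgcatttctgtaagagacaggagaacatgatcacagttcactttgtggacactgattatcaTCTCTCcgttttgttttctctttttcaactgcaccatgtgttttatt

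Of the 269 nhr genes, 8 had a peak in the pooled thresholded list, which is 2.97% (exact 95% interval 1.29 to 5.78%, counting error only). Of all protein-coding genes 844 did, which is 4.23%. At that share 11.37 nhr genes would have a peak, and at the share of each gene's own chromosome 9.74 would. The background share lies inside the interval for nhr genes. The 8 were nhr-255, nhr-142, nhr-47, nhr-35, nhr-91, nhr-85, nhr-132 and nhr-68. The conservative list also held 8, with nhr-41 in place of nhr-68, against a background of 4.26%.

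Fewer nhr genes had a peak in either replicate's own list. Replicate 1 alone gave 2 (0.743%, background 2.2%), nhr-142 and nhr-255. Replicate 2 alone gave 1 (0.372%, background 2.13%), nhr-255. Thus of the 8 genes in the pooled list, 1 (12.5%) passed the threshold in both replicates and 2 (25%) in at least 1 of them. Among the 844 genes of the background the same counts were 316 (37.4%) and 529 (62.7%). In the conservative list, where the replicates are compared with one another, the shares were close: 7 of the 8 nhr genes (87.5%) and 735 of the 844 (87.1%) had a peak there too. The median signal of the strongest peak was 79 at the 8 nhr genes and 99.8 at all 844. These differences in share and signal were not tested.

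nhr-255 had the strongest peak of the family. Its pooled signal was 161, rank 158 of 1379, with a signal of 80.8 in replicate 1 and 82.9 in replicate 2 at the same site. The replicates were close to each other, and the peak passed the threshold in all 4 thresholded lists. The summit lay 546 bp upstream of nhr-255 and inside the tRNA-Leu gene ZK678.t1 (chrX:15742050-15742133). Genes for tRNA are transcribed by RNA polymerase III. The chemoreceptor gene srg-64, on the other strand, began 1438 bp away. Peaks with a summit within 100 bp of a tRNA gene were found at 63 of the 844 genes (7.46%) and at 1 of the 8 nhr genes. The peak sequence occurred once in the genome, whereas the tRNA gene itself had 5 other copies at 90% identity.

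nhr-142 had a pooled signal of 110.7, rank 410, with 55.5 in replicate 1 and 55.6 in replicate 2. The replicate values were nearly equal, but only replicate 1 passed its own threshold. The summit (chrV:5790938-5791221) lay 527 bp upstream of nhr-142 and 150 bp upstream of F44E7.9, which is transcribed the other way, so the nearer 5' end belongs to the other gene. nhr-47 had a pooled signal of 93.8, rank 578, with 40.7 in replicate 1 and 57.3 in replicate 2. Its peak (chrV:5505142-5505425) was the only one of the set with the summit downstream of the 5' end of its nhr gene, by 31 bp, in the 5' UTR. The divergent neighbour dnj-19, named for its DnaJ chaperone domain, began 427 bp from the summit. These 3 peaks, at nhr-255, nhr-142 and nhr-47, were the only ones of the 8 genes with a pooled q value of 0.05 or less (37.5%, against 531 of 844 genes, 62.9%).

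**Figure D1:**
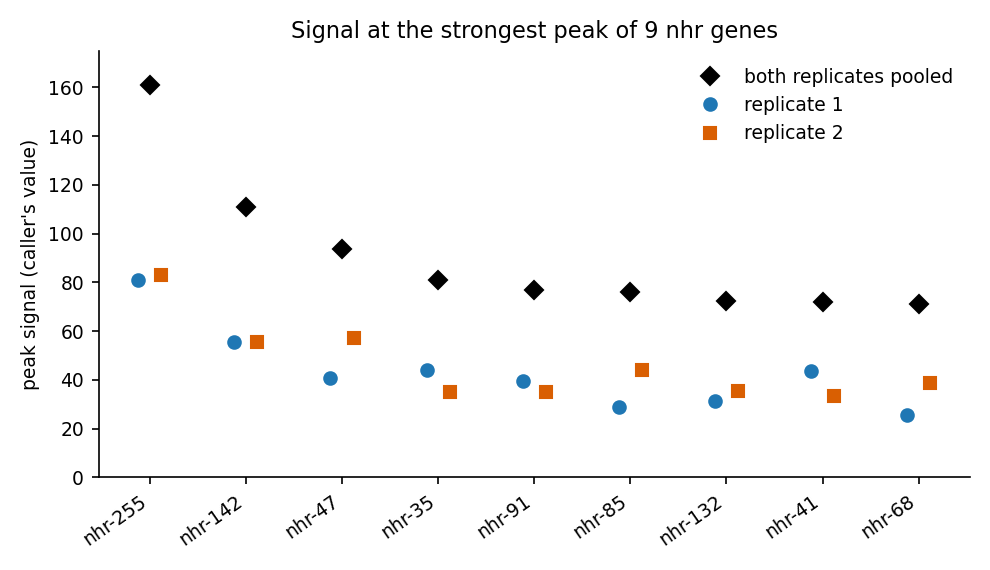
Signal of the strongest peak at the 9 nhr genes with a peak in the pooled or conservative list (vertical axis, the caller's value), for both replicates pooled and for each replicate at the same site. The pooled values run from 71.3 at nhr-68 to 161 at nhr-255, and neither replicate is the higher at every gene.

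The other 5 genes of the pooled list had signals between 71.3 and 81. nhr-85, the relative of vertebrate Rev-erb and fly E75, acts with nhr-23 to time pulses of the lin-4 microRNA. Its pooled signal was 76.2, rank 890, with 28.7 in replicate 1 and 44.2 in replicate 2 at the same site. The peak (chrI:13060472-13060755) lay in an intron, 989 bp upstream of an inner transcript start, and would not be counted from the outermost 5' end. Among peaks in the 5' end windows of nhr genes it was the pooled call closest to the threshold, with a global IDR of 0.00653.

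nhr-91, the relative of vertebrate germ cell nuclear factor, had a pooled signal of 77, rank 860, with 39.7 in replicate 1 and 35.2 in replicate 2. Its summit was 534 bp upstream in intergenic sequence (chrX:15308693-15308976), and the nearest 5' end of another gene, ser-2, which encodes a tyramine receptor, was 5872 bp away. nhr-35 had a pooled signal of 81, rank 782, with 43.9 in replicate 1 and 35.1 in replicate 2. That summit lay 307 bp upstream (chrX:4532242-4532525), with the next gene start, of pdi-2, at 8197 bp. Of the 8 genes, nhr-35 and nhr-91 were those whose peak was intergenic, over 1000 bp from the 5' end of any other protein-coding gene and away from tRNA genes.

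nhr-68 works with nhr-10 to turn on an alternative route of propionate breakdown. Its pooled signal was 71.3, rank 1057, with 25.7 in replicate 1 and 38.9 in replicate 2. The summit (chrV:11572834-11573117) was 464 bp upstream of nhr-68 but 14 bp downstream of the 5' end of H12C20.7 on the other strand. With the replicates set against each other the site had a global IDR of 0.0159, above the 0.01 limit, and it was left out of the conservative list. nhr-10 had no ranked peak in its window in the pooled list or in either replicate.

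nhr-132 was the only member with several peaks in the window. The stronger had a pooled signal of 72.2, rank 1030, with 31.3 in replicate 1 and 35.6 in replicate 2, and its summit lay 641 bp upstream (chrV:533663-533946), in coding sequence of nhr-58. The weaker, 435 bp upstream and overlapping the first, had a signal of 6.25, rank 1367 and a q value of 0.931, and neither replicate had a ranked summit within 100 bp of it. nhr-41, the relative of vertebrate testicular receptors and fly DHR78, was in the conservative list only. Its signal there was 72, with 43.5 in replicate 1 and 33.4 in replicate 2, and the global IDR was 0.00497 in that list but 0.0761 in the pooled ranked list. The summit (chrIV:1388167-1388450) was in an intron, 347 bp upstream of an inner transcript start and 22 bp from the tRNA-Glu gene (chrIV:1388216-1388287), which had 18 other copies.

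**Figure D2:**
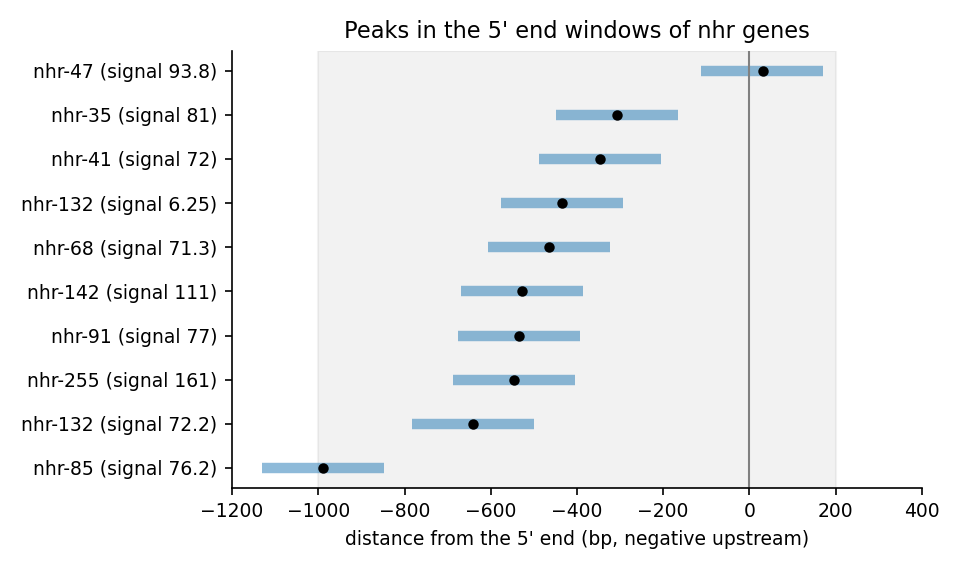
Position of each peak at the 9 nhr genes relative to the 5' end used (horizontal axis in bp, negative upstream), with bars for the peak and points for its summit, and the shaded range for the window. All but the nhr-47 summit lie upstream, from 307 bp at nhr-35 to 989 bp at nhr-85.

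All of these peaks were 284 bp wide, as were 1311 of the 1379 pooled peaks, so width carries no measurement here. None of the 10 peak sequences at the 9 genes had another copy in the genome at 90% identity over 50% of its length.

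In windows of 101 bp centred on the summit, ACANNTGT, on either strand, was found in 2 of the 9 pooled peaks of nhr genes, at nhr-35 and nhr-68. It was found in 55 of the 1379 pooled peaks (3.99%), at 4 of the 269 nhr 5' ends (1.49%) and at 2.77% of all 5' ends. With only 9 windows, the 2 matches do not set the members apart, and the difference was not tested. Over the whole peak, nhr-35 held 1 match, ACAATTGT, and nhr-68 held 2, both ACACGTGT. Of all pooled peaks 106 (7.69%) held a match over their width and 7 (0.508%) held more than 1.

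The other motifs were searched on both strands in the same 9 windows. With so few windows, a count of 0 or 1 beside the shares below does not set the members apart. TGTTGC, part of the site of the DM-domain protein MAB-3, was in none of the 9 windows, against 4.93% of all pooled peaks, 5.07% of all 5' ends and 5.58% of nhr 5' ends. AGGTCA, the hexamer that many nuclear receptors bind, was in none, against 3.48%, 2.38% and 3.72% of the same 3 sets. The tRNA B box was in none, against 6.74%, 0.15% and 0%. At nhr-255 the window ended at chrX:15742114, inside the tRNA gene, which runs to 15742133. The 3' part of that gene was therefore not searched, and the window does not show whether the gene holds a B box. TATAAA was in none, against 4.64%, 16% and 8.18%. GAGAGA was in 1, at nhr-47, against 15.4% of pooled peaks, 7.34% of all 5' ends and 15.2% of nhr 5' ends. The share of A and T in these windows, for the same 9 peaks and that of nhr-41, ran from 39.6% at nhr-255 to 70.3% at the weaker nhr-132 peak, with a mean of 51.1% over all pooled peaks and 63.9% at all 5' ends.

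The family sits unevenly on the chromosomes. Chromosome V carried 167 of the 269 genes (62.1%), against 25% of all protein-coding genes, and 4 of the 167 had a pooled peak (2.4%, background on that chromosome 3.18%). On X 3 of 23 did (13%, background 3.48%), namely nhr-255, nhr-35 and nhr-91, or 2 of 23 without the peak in the tRNA gene. On I it was 1 of 23 (4.35%, background 6.05%). There was no pooled peak at the 15 nhr genes of II (background 3.77%), the 8 of III (6.52%) or the 33 of IV (3.47%).

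The X counts are small, and in each replicate's own list X had 1 nhr gene with a peak, nhr-255. In the pooled ranked list, which also holds weaker calls, the median strongest signal of the 19 nhr genes on X with a ranked peak was 41, against 30.9 for all genes of X. On V the medians were 28.8 for 112 nhr genes and 29.4 for all genes. The difference on X was smaller within replicates, with medians of 21.5 against 18.8 in replicate 1 and 23.7 against 20.9 in replicate 2. It was not tested.

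**Figure D3:**
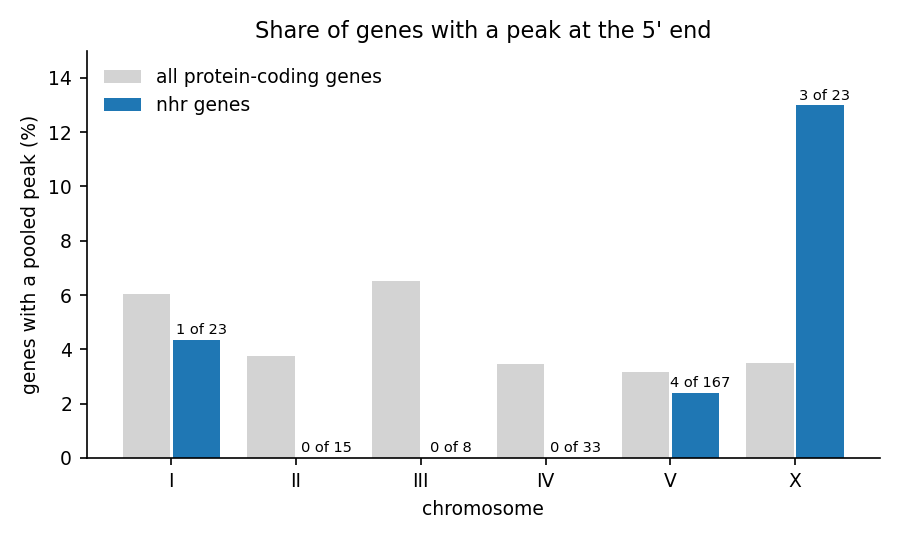
Percentage of genes with a pooled thresholded peak in the 5' end window (vertical axis), by chromosome, for nhr genes and for all protein-coding genes, with the count of nhr genes above each bar. The nhr bar stands above the background bar on X, at 3 of 23 genes, and below it on the other 5 chromosomes.

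When each chromosome was divided along its length into 3 equal parts, the left parts held 4 of 110 nhr genes with a peak, the middle parts 1 of 72 and the right parts 3 of 87. The backgrounds were 4.07%, 4.14% and 4.49%. On V the left part held 3 of 78 (background 2.19%), the middle 1 of 41 (4.84%) and the right 0 of 48 (2.31%). The gene of the middle part was nhr-68 and those of the left part were nhr-47, nhr-132 and nhr-142.

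The ranked lists, which include both the peaks past the threshold and weaker calls, cover most of the family. The pooled ranked list had a summit in the window of 192 nhr genes (71.4%) and of 15463 of all genes (77.4%), and 77 nhr genes had none. These shares were not tested against each other. Outside the 9 genes with a peak past the threshold, 183 of 260 nhr genes (70.4%) had a ranked summit, with a median strongest signal of 29.3 and a highest of 67.9. Over all genes with a ranked summit, called or not, the median of the strongest signal was 29.9 at nhr genes (range 3.41 to 161) and 30.9 at all genes (range 2.03 to 683). In replicate 1, 143 nhr genes had a ranked summit, with a median of 17.9 against 18.9 for all genes. In replicate 2, 141 did, with 21.2 against 21. Of the 192, 46 (24%) lay above the 75th percentile of all genes, 22 (11.5%) above the 90th, 8 (4.17%) above the 95th, all of them among the 9 genes with a peak past the threshold, and 0 above the 99th, which was a signal of 168. The 192 genes had 191 distinct strongest peaks, since nhr-89 and nhr-169 shared 1.

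**Figure D4:**
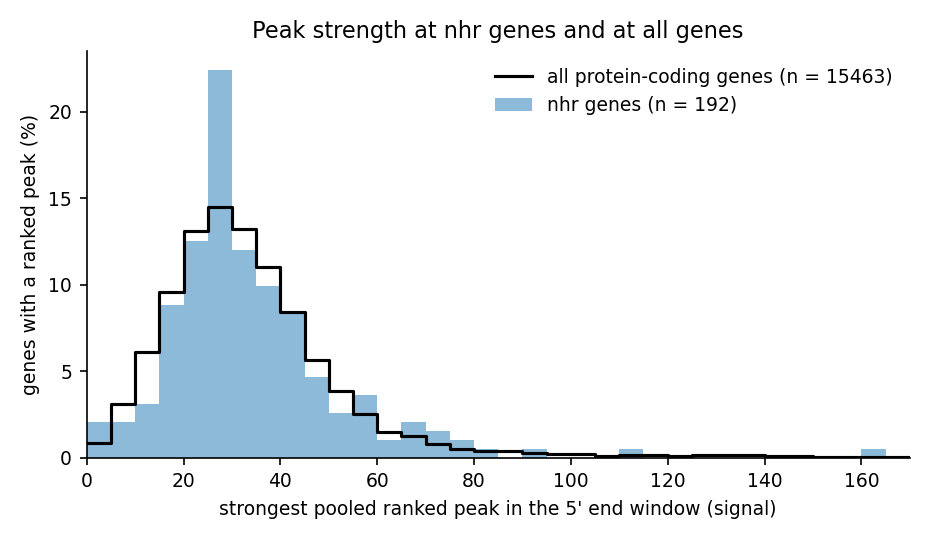
Signal of the strongest pooled ranked peak in the 5' end window (horizontal axis, the caller's value), as the percentage of 192 nhr genes and of 15463 protein-coding genes in each bin of signal (vertical axis); the axis ends at 170, below the highest value of all genes. The distributions overlap over most of the range, with medians of 29.9 and 30.9, and the nhr gene farthest to the right is nhr-255 at 161.

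Across the 104 nhr genes with a ranked peak in both replicates, the strongest signals had a Pearson correlation of 0.498 on the log10 scale and a Spearman correlation of 0.448. Across 7886 protein-coding genes they were 0.584 and 0.449. Without the 9 genes that had a peak past the threshold they were 0.286 and 0.302 over 95 nhr genes. These are correlations across genes of the same pair of libraries, which are not independent replicates. A ranked peak was missing from both replicates at 89 of the 269 nhr genes and at 5611 of the 19973 protein-coding genes.

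**Figure D5:**
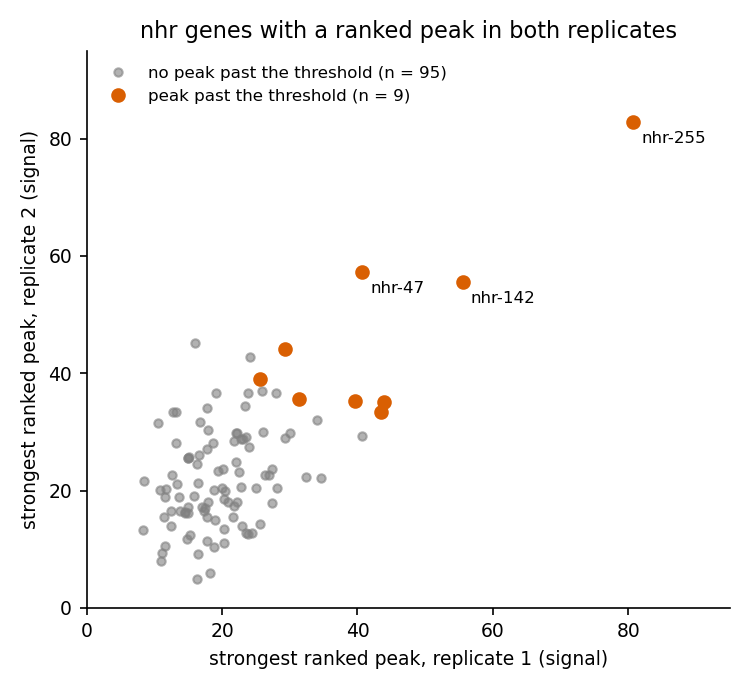
Signal of the strongest ranked peak in replicate 1 (horizontal axis) and replicate 2 (vertical axis) for the 104 nhr genes that had a ranked peak in both. nhr-255, nhr-142 and nhr-47 stand apart to the upper right, and the other 6 genes with a peak past the threshold lie at the edge of the remaining 95.

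Peaks inside nhr genes but outside their 5' end windows formed a further set of 10 pooled peaks. In the pooled thresholded list 9 of 269 nhr genes (3.35%) had such a peak, against a background of 1.94%. In the conservative list it was 11 (4.09%, background 1.82%), in replicate 1 alone 2 (0.743%, background 0.696%), nhr-3 and nhr-17, and in replicate 2 alone 0 (background 0.591%). The median gene length was 2309 bp for nhr genes and 2027 bp for all genes.

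The strongest of these was in an intron of nhr-17, with a pooled signal of 98.2, and with 56.2 in replicate 1 and 46 in replicate 2. Its summit was 11 bp from C02B4.t2, a tRNA-Tyr gene with 18 other copies in the genome. nhr-3 had 80.9 in an intron, with 48.5 and 32.6. In coding exons, nhr-36 had 77.4, with 36.2 in replicate 1 and no ranked summit at the site in replicate 2. nhr-66, a partner of NHR-49, had 75.8, with 37.7 in replicate 1 and 39.3 in replicate 2. nhr-48 had 73.2, with 25.9 in replicate 1 and 52.1 in replicate 2, so replicate support differed among these peaks. nhr-41 had a pooled intronic peak of 71.7 at another site than its conservative peak, and the remaining intronic peaks were at nhr-28 (69.7) and nhr-34 (63.8). The nhr-58 peaks of 72.2 and 6.25 were those counted upstream of nhr-132. The genes with such a peak in the conservative list and not in the pooled list were nhr-15, nhr-18, nhr-114 and nhr-120, with signals of 68.5, 68.6, 66.1 and 63.6.

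Counting the window and the gene, 17 of 269 nhr genes (6.32%) had a pooled peak, against 5.95% of all genes. On X 7 of 23 did (30.4%, background 5.79%), namely nhr-3, nhr-17, nhr-28, nhr-35, nhr-48, nhr-91 and nhr-255. Of these, nhr-17 and nhr-255 had their peak within 100 bp of a tRNA gene. Only nhr-3, nhr-17 and nhr-255 also had a peak in a replicate's own thresholded list. On I it was 1 of 23 (4.35%, background 8.17%), on IV 3 of 33 (9.09%, background 4.88%) and on V 6 of 167 (3.59%, background 4.16%). II and III had 0 of 15 and 0 of 8 (backgrounds 5.28% and 9.32%). The nhr genes of X had a median length of 4483 bp against 2548 bp for all genes of X, and the part of length in these counts was not tested. These counts were made after the peaks at the 5' ends had been seen.

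The nhr genes just short of the threshold were led by nhr-112, with a pooled signal of 67.9 and a global IDR of 0.0101, with 28.0 in replicate 1 and 36.7 in replicate 2. nhr-1, also at 67.9, had 16.04 in replicate 1 and 45.2 in replicate 2, a difference larger than at any of the 9 genes above, and a global IDR of 0.0292. nhr-64, studied for its part in fat storage, had 65.8, with 40.6 and 29.4, and a global IDR of 0.0105. The next 7 by signal were nhr-78, nhr-204, nhr-212, nhr-120, nhr-48, nhr-32 and nhr-2, between 65.7 and 56.97. Among them nhr-48, a relative of the vitamin D receptor, had no ranked peak in replicate 1 and 43.0 in replicate 2.

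Of 36 conserved or well studied receptors, 5 (13.9%, against the background of 4.23% of all protein-coding genes) had a pooled peak, namely nhr-35, nhr-47, nhr-68, nhr-85 and nhr-91. nhr-35 and nhr-47 were known to have a peak when this list was written, and without them the count was 3 of 34 (8.82%). Of the 233 nhr genes outside the list 3 did (1.29%). The median strongest ranked signal was 37.3 over the 33 listed genes that had a ranked peak and 28.8 over 159 of the others. The choice of the list leaves this difference without a test.

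Most of the best known receptors had no peak past the threshold, and neither did most protein-coding genes, of which 4.23% had a pooled peak. nhr-25, the relative of fly FTZ-F1 that acts in molting, had a strongest ranked signal of 44.1, with 27 in replicate 1 and 22.6 in replicate 2. nhr-23, the relative of ROR and a driver of the molting cycle, had 34.3, with 22.1 and 24.8. nhr-49, a regulator of fat metabolism, had 51.4, with 29.2 and 28.9, while nhr-80, which acts with it on fatty acid desaturases, had 29.3, with 14.5 in replicate 1 and none in replicate 2. Here and for the listed genes below, each replicate value is the strongest in the window, not always at the pooled site. At nhr-23 and nhr-49 the replicate 1 summit lay at another site than the pooled summit. nhr-67, the relative of tailless, had 28.5, and nhr-6, the relative of the NR4A receptors, had 33. nhr-8, which acts in xenobiotic and cholesterol responses, had no pooled ranked peak, and neither did nhr-111.

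Nuclear receptor genes with other names gave 0 of 5 with a pooled peak. The strongest ranked signal was 38.5 at daf-12, the receptor for dafachronic acids, 36.8 at fax-1, 28.7 at unc-55 and 20 at sex-1, and odr-7 had no ranked peak.

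Genes that act with the receptors were read beside the same background of 4.23%. Among coregulators 2 of the 4 matched by symbol had a pooled peak. cbp-1, the CBP/p300 acetyltransferase, had a pooled signal of 209, with 93.3 in replicate 1 and 109 in replicate 2, at a summit 846 bp upstream, and it passed the threshold in both replicates alone. That signal exceeded the value at every nhr gene. din-1, a corepressor of DAF-12, had 93.1, with 39 and 47.9, at 720 bp upstream. The NCoR-like gei-8 had a ranked signal of 33.1 and the Mediator subunit mdt-15, a partner of NHR-49, had 17.8, neither past the threshold.

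Genes listed for dafachronic acid synthesis gave 0 of 4, with ranked signals of 29.2 at daf-9 and 33.6 at strm-1 and none at daf-36 or dhs-16. Targets of NHR-49 and NHR-80 in fat metabolism also gave 0 of 4, the highest ranked signal being 35 at the desaturase gene fat-6. In the list of molting and chaperone genes, 1 of the 3 matched by symbol had a pooled peak. It was hsp-90, which encodes the chaperone that steroid receptors bind in other animals, with a pooled signal of 328, and with 115 in replicate 1 and 212 in replicate 2, at 403 bp upstream. mlt-10 and nekl-2 had ranked signals of 17.3 and 23.3.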

How the data were processed

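The authors deposited 8 peak lists on ce11, whose chromosome lengths match WBcel235: a ranked and a thresholded list for each replicate, for both pooled, and for the 2 replicates compared with one another. The deposited signal is the caller's value per peak. The authors gave q values as −log10, and in ranked lists also the local and global IDR on that scale. The score in the authors' lists follows the global rate. Per the labels a control was used. It was not analysed here. The aligner is not given in the sources used here, nor is the peak caller. Ranked lists have 8 columns of paired calls each, which were not used.

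Genes, transcripts and tRNA genes came from Ensembl release 115 and sequence from RefSeq. Peaks were placed by summit, and a summit within 100 bp in another list counted as the same site. Shares have exact binomial intervals. No test was made, since there is 1 group. Placement was tested on simulated peaks. Python 3.11.15, pandas 2.3.3, numpy 2.4.6, scipy 1.17.1 and blastn 2.17.0 were used. The members, lists and motifs were chosen with earlier results of these data known. Named genes were those with a peak past the threshold by their 5' end in any list, the next 10 by pooled ranked signal, pathway genes, and the nearest gene of each such peak. The listed receptors are given by counts, with values for some of known role. Genes with a peak in the gene body were named after their values were seen. The listed symbols ncoa-1 and daf-21 matched no symbol of the annotation. Other names of a gene were not searched, so this does not show that the gene itself was absent.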

Additional observations from a re-analysis of the deposited data

How the results depend on the processing

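The count of 8 nhr genes fell to 1 without replicate 1 (background 2.13%) and to 2 without replicate 2 (2.2%). It fell to 2 at a global IDR of 0.001 or less (1.87%) and to 3 at a q value of 0.05 or less (2.66%). With a window of 500 bp upstream to 100 bp downstream it was 4 (3.15%). In that window nhr-132 was counted only through its weaker peak, of signal 6.25. Under the other alternatives the count was 8 in the conservative list (background 4.26%), 10 with a 2000 bp window (5.81%) and 7 with outermost 5' ends only (3.88%). It was 6 with nearest 5' ends only (3.12%), 7 without peaks at tRNA genes (3.93%) and 9 by any overlap (4.59%). The background thus moved with the count. For the counts by chromosome that follow, the share over all genes is not given, so their changes cannot be read as particular to nhr genes. On chromosome I the count of 1 became 0 without either replicate, under both stricter thresholds, in the narrow window and with outermost 5' ends. On IV the count of 0 became 1 in the conservative list and by overlap, and 2 with the wide window. On V the count of 4 became 0 to 1 without a replicate, 1 by IDR, and 2 by q value or nearest 5' end. On X the count of 3 became 1 without either replicate, under both stricter thresholds and in the narrow window. II and III stayed at 0 throughout. The median strongest signal of 77 over the 9 genes was 38.9 to 40.7 without a replicate, where signals are not scaled between lists, and 36.1 in the narrow window, which leaves out 5 of the strongest summits. No paired analysis was possible because there is 1 group and no test. Depth is unknown, so a missing peak does not show that DMD-9 was absent. The difference of the nhr share from the background is within counting error, and 6 of the 8 calls did not pass the threshold in either replicate's own list, although 7 of the 8 were in the conservative list.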
